A study of Mus musculus with 32 samples.

Results

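Expression of 10 genes of the Toll-like receptor and NF-kB pathway was measured in epididymal fat (eWAT) and liver of male mice given corticosterone (cort). The genes were taken by symbol from the Ensembl IDs of the count table, and all 10 were found among its 47643 gene IDs. They are the receptors Tlr2 and Tlr4, the adaptor Myd88 and the kinase-like inhibitor Irak3, the transcription factor subunits Nfkb1, Nfkb2, Rela and Relb, and the inhibitors Nfkbia and Tnfaip3. The mice were C57BL/6 males of 10 weeks that received cort or ethanol vehicle (veh) in the drinking water for 7 days, on a normal protein diet (NPD, 20% of kcal from protein) or a high protein diet (HPD, 60%). In the study the HPD also held less carbohydrate, to match the calories of the NPD. The diet comparisons therefore do not separate protein from carbohydrate. Each tissue had 4 libraries in each of the groups Veh NPD, Cort NPD, Veh HPD and Cort HPD, 32 in all, and no group carried a transgene or deletion. RNA came from whole tissue, and the labels do not say whether a fat and a liver library came from the same mouse. QuantSeq libraries take reads at the 3′ end of transcripts, so longer genes do not gain counts by their length. Levels are given as CPM, the share of a gene in the counts of a library, on library totals scaled by TMM factors within a tissue.

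Toll-like receptors bind microbial products at the cell surface or in endosomes and signal through adaptors such as Myd88 to kinases that end in the IkB kinase complex. That complex marks IkB proteins, of which Nfkbia encodes IkB alpha, for degradation, and NF-kB dimers then enter the nucleus. NF-kB switches on its own inhibitors Nfkbia and Tnfaip3 along with cytokine genes, and so limits its own activity. The glucocorticoid receptor is known to restrain NF-kB, and Nfkbia has been described as a gene that glucocorticoids can induce. In fat and liver the pathway is best known from resident macrophages, but adipocytes and hepatocytes carry it as well.

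The 3 member promoters that held the kappa B motif in the form searched here, letters that NF-kB is known to bind, are printed. RefSeq promoter windows of GRCm38.p6 were matched for 7 of the 10 genes (Tlr2, Myd88, Irak3, Nfkb2, Rela, Nfkbia and Tnfaip3), with 11 windows in all because some genes have several start sites. The kappa B motif was searched on either strand in the form shown in capitals, with any base allowed at the fourth and the fifth position of its G-rich strand, and it lay within 250 bases before the start in windows of Nfkb2, Nfkbia and Tnfaip3. The same letters were found in 464 of all 32851 windows of that length, which is 1.41%. The 100 bases before the start are given 5′ to 3′ on the gene's strand, with the motif in capitals.
Nfkb2, chr19:46304637-46304736, plus strand: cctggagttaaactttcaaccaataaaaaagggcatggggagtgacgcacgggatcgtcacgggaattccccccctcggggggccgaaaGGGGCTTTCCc
Nfkbia, chr12:55492648-55492747, minus strand: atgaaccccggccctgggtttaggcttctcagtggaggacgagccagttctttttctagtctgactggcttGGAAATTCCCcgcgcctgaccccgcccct
Tnfaip3, chr10:19015411-19015510, minus strand: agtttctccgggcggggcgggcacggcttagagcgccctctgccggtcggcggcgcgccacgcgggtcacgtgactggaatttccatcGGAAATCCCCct
The motif began 11 bases before the start in Nfkb2, 29 bases before it in Nfkbia and 12 bases before it in Tnfaip3, and a later start of Nfkb2 had another 225 bases upstream. The palindromic glucocorticoid response element, searched by its consensus on either strand, was in 0 of the members' 11 windows and in 127 of all windows (0.387%). A match is a description of these letters and not evidence that a factor binds there. Other forms of the kappa B motif were not searched, so bases in lower case and windows without a match may hold them.

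Total counts ranged from 8933307 to 18057936 per library, and 15187 genes in eWAT and 12391 in liver had enough counts for a test. All 10 genes were tested in eWAT and 9 in liver, where Irak3 had only 1 to 10 counts in each library used and was not tested. The tissues carried their labelled markers, since the summed level of 6 adipocyte genes was 13209 to 21109 CPM in eWAT and the summed level of 6 hepatocyte genes was 68328 to 251394 CPM in liver. Fkbp5, a gene that glucocorticoids induce, rose with cort on the NPD by 1.74 on the log2 scale in eWAT and by 2.23 in liver (adjusted p = 0.0156 and 0.00939, edgeR quasi-likelihood test), and its values on the HPD were 0.60 and 1.15 (adjusted p = 0.445 and 0.188). It was the only one called on the NPD of 7 such genes listed, whose medians were 0.05 in eWAT and 0.07 in liver. On the HPD 0 of the 7 rose, while 2 fell in eWAT (Zbtb16 and Sgk1, list median -0.40) and 3 in liver (Per1, Zbtb16 and Klf9, list median -0.41). Liver Veh HPD replicate 4 was left out, so that this group has 3 libraries, and its median Spearman correlation with the others of its group was 0.926, against 0.964 or more for every other liver library. It stood far above the other 3 libraries of its group for Relb (8.95 CPM), Nfkb2 (15.8 CPM) and Tlr2 (3.58 CPM), and results are given with it where a call changes. eWAT Cort HPD replicate 4 held epididymis transcripts, with a summed level of 25026 CPM over 9 marker genes against 0 to 15.6 CPM in the other eWAT libraries.

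The levels of the members were far apart within veh fat. In eWAT of Veh NPD mice Nfkbia stood first at 336 CPM ± 66.9 (SD, n = 4), followed by Rela at 45.2 CPM ± 4.04, with no overlap between their libraries. Nfkb1 at 26.3 CPM ± 4.999 and Myd88 at 22.6 CPM ± 4.10 came next and overlapped each other. Tlr4 (12.3 CPM ± 2.68), Irak3 (12.3 CPM ± 3.54), Relb (11.2 CPM ± 0.872) and Nfkb2 (11.01 CPM ± 2.21) could not be ordered beyond their spread. Tnfaip3 (4.26 CPM ± 2.74) and Tlr2 (2.52 CPM ± 0.383) were lowest and overlapped each other.

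**Figure D1:**
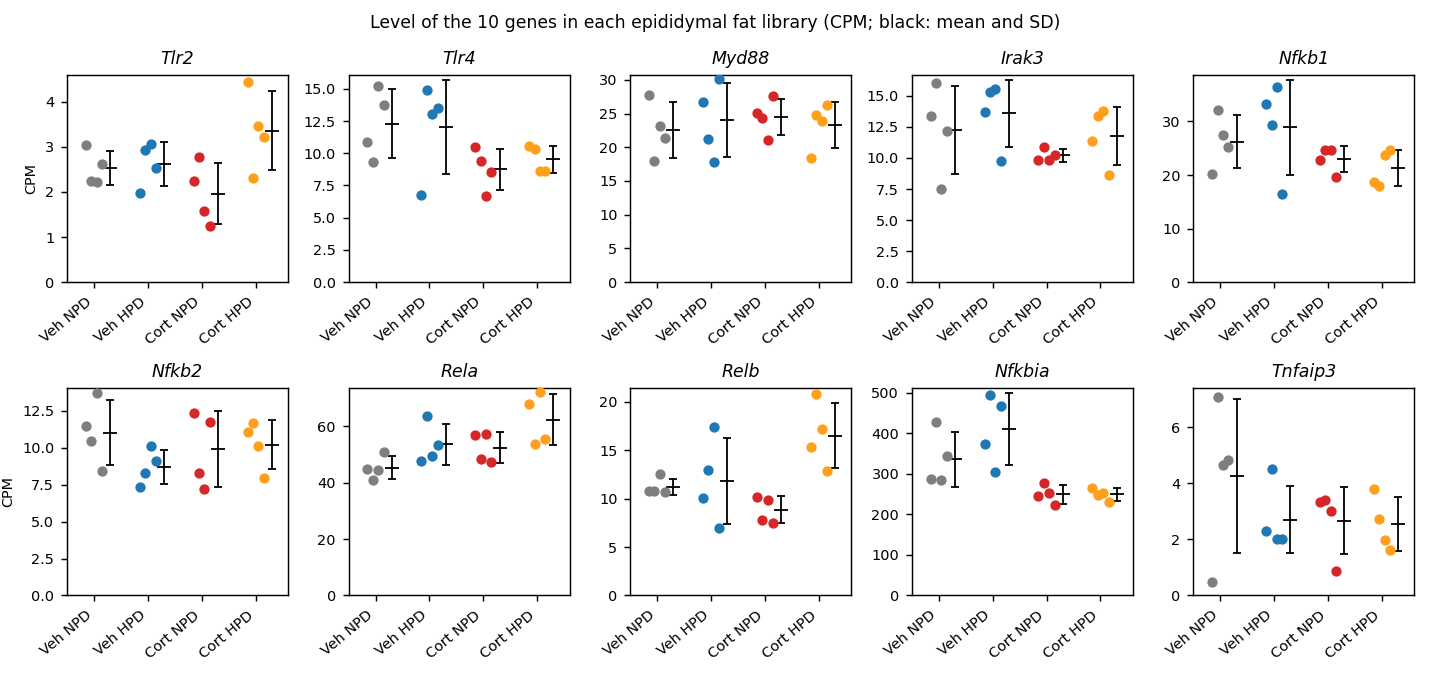
Level of each of the 10 genes in the 16 eWAT libraries, in CPM on a linear axis that starts at 0, with 1 panel per gene, 1 point per library, and the mean and SD of each group of 4 beside the points. Nfkbia lay between 223 and 278 CPM in the 8 cort libraries and between 284 and 496 CPM in the 8 veh libraries, and Relb was higher in the 4 Cort HPD libraries (12.8 to 20.7 CPM) than in the 4 Cort NPD libraries (7.48 to 10.2 CPM).

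Cort lowered the transcript of the inhibitor Nfkbia in fat of HPD mice, and this was the only one of the 10 genes called there. Nfkbia, which holds NF-kB in the cytoplasm, read 374, 496, 305 and 468 CPM in the Veh HPD libraries and 266, 248, 253 and 230 CPM in the Cort HPD libraries. All 4 cort libraries lay below all 4 veh libraries, and the spread of the cort group was the smaller one. The log2 fold change was -0.72 with a standard error (SE) of 0.15, a ratio of 0.607, with an adjusted p of 0.00226 by edgeR's quasi-likelihood test over all genes tested. Without the library with epididymis transcripts it was -0.68 with an adjusted p of 0.007. In this comparison 6.09% of all genes tested were called, and 2.63% of all genes tested were called lower under cort, beside 1 of the 10 members. Since whole tissue was sequenced, fewer cells of a type and less RNA per cell cannot be told apart here or in the results that follow.

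On the NPD the Nfkbia levels in fat also did not overlap, but the change did not pass the adjusted threshold. The Veh NPD libraries read 288, 427, 284 and 344 CPM and the Cort NPD libraries 244, 278, 253 and 223 CPM. The log2 fold change was -0.43 (SE 0.14), with an adjusted p of 0.0697 in the edgeR quasi-likelihood test, and DESeq2 gave an adjusted p of 0.0392. None of the 10 genes was called by edgeR in this comparison, 1 had an unadjusted p under 0.05, DESeq2 called 1 and limma voom 0, while 7.98% of all genes were called. In fat the change of Nfkbia with cort was not found to differ between the diets: the interaction was -0.29 (SE 0.20), with an interval of 2 SE from -0.70 to 0.11 and an edgeR adjusted p of 0.988.

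The summed levels of other cells' markers are given beside these values. The sum of 10 macrophage genes was 1207 to 1415 CPM in Veh NPD, 1052 to 1354 CPM in Cort NPD, 1148 to 1468 CPM in Veh HPD and 1181 to 1571 CPM in Cort HPD, so the groups overlapped. Of these 10 genes, 3 fell with cort on the NPD (Adgre1, Mrc1 and Itgam), and on the HPD 2 fell (Adgre1 and Mrc1) and 1 rose (Cd68). The sum of 6 stromal genes did not overlap, with 3986 to 4765 CPM in Veh NPD against 2574 to 2746 CPM in Cort NPD (3 genes lower). On the HPD it was 3896 to 4356 CPM under veh against 2800 to 3082 CPM under cort (1 gene lower). Dcn had the highest median of the 6, at 2193 CPM over the eWAT libraries. The sum of 6 red blood cell genes was 5252 to 9274 CPM in Veh HPD and 12687 to 25861 CPM in Cort HPD. The sum of 6 hepatocyte genes was 1294 to 2480 CPM in Veh HPD and 2482 to 2964 CPM in Cort HPD. Most of it was Cyp2e1, at 853.4 to 3932.5 CPM over the eWAT libraries, while Alb was at 31.4 to 84.2 CPM. Of the 4 hepatocyte genes tested in eWAT, 0 were called for cort on the HPD. No defining macrophage marker was at 0 in an eWAT library. The sum of 5 genes of Kupffer cells, some of which other resident macrophages also use, was low but did not overlap, with 6.61 to 8.67 CPM in Veh NPD against 10.2 to 32.8 CPM in Cort NPD and 7.63 to 12.97 CPM in Veh HPD against 15.4 to 26.8 CPM in Cort HPD. Of these genes Vsig4 rose on the NPD by 3.46 on the log2 scale (edgeR adjusted p = 0.000419) and Cd5l on the HPD by 2.17 (adjusted p = 0.0217), and Clec4f was at 0 in all eWAT libraries. The part of these cells in the Nfkbia values was not tested.

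The other inhibitor, Tnfaip3, a ubiquitin-editing enzyme that shuts off NF-kB signalling, was low and variable in fat. Its Veh NPD libraries read 0.494, 7.07, 4.64 and 4.82 CPM and its Cort NPD libraries 3.33, 3.42, 2.997 and 0.890 CPM. The lowest libraries of both groups rested on 8 and 10 counts. On this scale the log2 fold change of -0.67 had an SE of 0.58, and on the HPD it was -0.10 (SE 0.58), so the data bound neither closely.

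Among the subunits, Nfkb1, which encodes a precursor that is cut to a DNA-binding subunit, had 20.1, 32.2, 27.5 and 25.2 CPM in Veh NPD and 22.8, 24.7, 24.7 and 19.6 CPM in Cort NPD. On the HPD its veh libraries read 33.3, 29.4, 36.5 and 16.4 CPM and its cort libraries 18.7, 18.01, 23.7 and 24.6 CPM. Veh HPD replicate 4 was the lowest library of all groups and lay below all 4 Cort HPD libraries, while the other 3 veh libraries of that diet lay above them. The log2 fold change on the HPD was -0.44 (SE 0.20, edgeR adjusted p = 0.23), and without that replicate it was -0.63 with an adjusted p of 0.0269. Rela, the main activating subunit, read 44.8, 40.9, 44.6 and 50.7 CPM in Veh NPD, 56.8, 48.3, 57.3 and 47.1 CPM in Cort NPD, 47.5, 63.7, 49.5 and 53.3 CPM in Veh HPD and 67.9, 53.8, 72.0 and 55.5 CPM in Cort HPD. The cort values of Rela leaned higher on both diets by about equal amounts, 0.21 (SE 0.14) on the NPD and 0.22 (SE 0.14) on the HPD on the log2 scale, and neither passed the test (edgeR adjusted p = 0.422 and 0.405). Nfkb2, which encodes the precursor of the alternative pathway, ranged only from 7.18 to 13.7 CPM over the 16 libraries, with cort against veh at -0.15 on the NPD and 0.22 on the HPD on the log2 scale.

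Relb, the partner of the Nfkb2 product, was the member whose fat levels differed most between the diets under cort. It read 10.2, 7.78, 9.86 and 7.48 CPM in Cort NPD and 15.3, 20.7, 17.2 and 12.8 CPM in Cort HPD. The groups did not overlap, and the log2 difference of HPD over NPD was 0.90 (SE 0.25), a ratio of 1.86. Its adjusted p by edgeR was 0.124, so it was not called, and without the library with epididymis transcripts the difference was 1.003 with an adjusted p of 0.118. Under veh the same libraries of the 2 diets overlapped, with 10.8, 10.8, 12.5 and 10.7 CPM on the NPD and 10.0, 13.0, 17.4 and 7.01 CPM on the HPD. Cort against veh was -0.34 (SE 0.25) on the NPD, with groups that did not overlap, and 0.48 (SE 0.24) on the HPD, with groups that did. The interaction was 0.82 (SE 0.35), with an edgeR adjusted p of 0.912. Groups that do not overlap were found for 14.9% of all genes in the cort comparison on the NPD, where 2 of the 10 members were of this kind, for 11.3% in the cort comparison on the HPD, where 1 was, and for 6.66% in the diet comparison under cort, where 1 was.

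The receptors and the Myd88 step showed no called change in fat. Tlr4, the receptor for bacterial lipopolysaccharide, read 10.9, 9.31, 15.2 and 13.8 CPM in Veh NPD and 10.5, 9.38, 6.70 and 8.55 CPM in Cort NPD, and 6.73, 14.9, 13.0 and 13.5 CPM in Veh HPD against 10.6, 10.3, 8.64 and 8.62 CPM in Cort HPD. Its groups overlapped on both diets, with log2 fold changes of -0.48 (SE 0.25) and -0.34 (SE 0.25). Tlr2, the receptor for bacterial lipoproteins, stayed between 1.25 and 4.44 CPM, with log2 fold changes for cort of -0.36 (SE 0.47) on the NPD and 0.36 (SE 0.46) on the HPD. Myd88, the adaptor shared by most of these receptors, lay between 17.9 and 30.2 CPM, and its cort changes of 0.12 and -0.04 had intervals of 2 SE from -0.25 to 0.49 and from -0.41 to 0.33. Irak3, which holds back signalling below Myd88, lay between 7.53 and 16.01 CPM, with cort changes of -0.26 (SE 0.24) and -0.21 (SE 0.24).

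**Figure D2:**
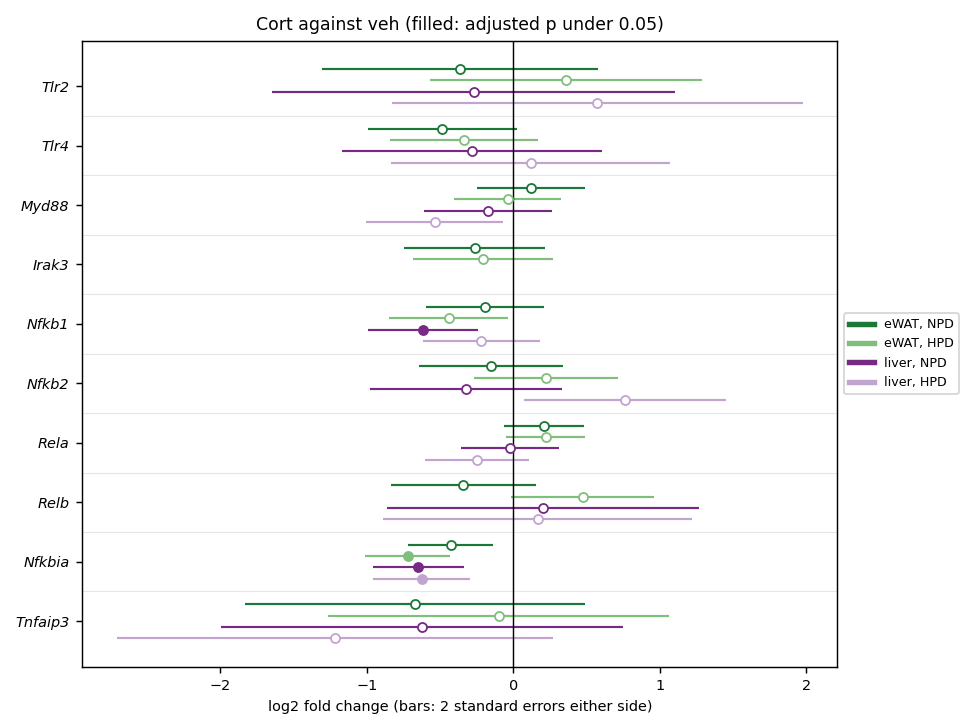
Log2 fold change of cort against veh for each of the 10 genes (rows) in eWAT and liver on each diet (colours), with bars of 2 SE on either side and filled points for an adjusted p under 0.05. The 4 filled points are Nfkbia in eWAT on the HPD (-0.72) and in liver on the NPD (-0.65) and HPD (-0.63), and Nfkb1 in liver on the NPD (-0.62); Irak3 was not tested in liver.

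In liver, Nfkbia fell with cort on both diets. It read 144, 229, 189 and 198 CPM in Veh NPD and 130, 143, 112 and 99.6 CPM in Cort NPD, so that the highest cort library was just below the lowest veh library. The log2 fold change was -0.65 (SE 0.16), a ratio of 0.638, with an adjusted p of 0.00757 by edgeR. On the HPD it read 168, 149 and 131 CPM under veh and 86.2, 99.5, 97.9 and 104 CPM under cort. No library of these groups overlapped either, and the log2 fold change was -0.63 (SE 0.17), a ratio of 0.648, with an edgeR adjusted p of 0.019. This call rested on which veh libraries were used, since the value was -0.52 with an adjusted p of 0.0569 with the left-out library, which read 116 CPM, -0.54 with 0.0977 without Veh HPD replicate 1 and -0.61 with 0.0587 without replicate 2. The interaction of diet and cort was 0.02 (SE 0.23), and its interval of 2 SE ran from -0.43 to 0.48.

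Nfkb1 fell with cort in liver on the NPD. It read 9.09, 10.8, 9.96 and 8.12 CPM in Veh NPD and 7.70, 6.21, 5.07 and 5.77 CPM in Cort NPD, without overlap. The log2 fold change was -0.62 (SE 0.19), a ratio of 0.652, with an adjusted p of 0.0325 by edgeR, from 67 to 115 counts per library. The call was lost without any of Veh NPD replicates 1, 2 and 3 or Cort NPD replicates 2, 3 and 4, with adjusted p between 0.0514 and 0.101, and with the left-out veh library in the fit, with 0.0687. On the HPD its libraries overlapped, with 9.37, 6.65 and 8.99 CPM under veh and 6.36, 6.80, 8.19 and 7.42 CPM under cort, and the value was -0.22 (SE 0.20, edgeR adjusted p = 0.54). The interaction was 0.40 (SE 0.27, edgeR adjusted p = 0.582). On the NPD 2 of the 9 members tested were called, both lower, where 12.6% of all genes were called, 5.79% were lower and 18.5% had groups that did not overlap, and on the HPD 1 of 9 was called, lower, where 9.89% were called and 5.14% were lower.

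Macrophage transcripts moved with these comparisons in liver. The sum of 10 macrophage genes was 256 to 355 CPM in Veh NPD and 120 to 226 CPM in Cort NPD, with 4 of them lower (Adgre1, Csf1r, C1qa and C1qb), and on the HPD it was 234 to 272 CPM against 135 to 265 CPM, with 3 lower (Csf1r, Cd163 and C1qb). The sum of 5 Kupffer cell genes was 154 to 225 CPM in Veh NPD and 60.7 to 80.8 CPM in Cort NPD, with 4 lower (Clec4f, Vsig4, Timd4 and Cd5l), and on the HPD it was 171 to 177 CPM against 92.1 to 164 CPM, with 3 lower (Clec4f, Vsig4 and Timd4). Itgam was at 0 in 2 liver libraries. The sum of 6 hepatocyte genes was 79134 to 110944 CPM in Veh NPD and 96151 to 118331 CPM in Cort NPD (0 higher, 3 lower, median log2 fold change -0.41). It was 68328 to 80384 CPM in Veh HPD and 138549 to 251394 CPM in Cort HPD (2 higher, 1 lower, median -0.05). Alb had the highest level of the 6, at 22133.5 to 210026 CPM over all liver libraries. On the HPD the sum of 6 red blood cell genes was 1953 to 3548 CPM under veh and 5441 to 7793 CPM under cort (2 higher, 1 lower), and that of 6 endothelial genes was 59.2 to 75.6 CPM and 32.1 to 45.9 CPM (2 lower). The part of these shifts in the values of Nfkbia and Nfkb1 was not tested.

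A pair of further members had liver groups that did not overlap on the HPD without passing the adjusted test. Myd88 read 21.8, 14.5 and 14.7 CPM under veh and 10.0, 13.5, 12.3 and 11.1 CPM under cort, a log2 fold change of -0.54 (SE 0.23, edgeR adjusted p = 0.16) that was -0.32 without Veh HPD replicate 1. Nfkb2 read 3.07, 3.11 and 2.97 CPM under veh and 3.48, 9.59, 3.90 and 3.56 CPM under cort. Its value of 0.76 (SE 0.34, edgeR adjusted p = 0.174) rested on Cort HPD replicate 2, without which it was 0.26, and it was -0.25 with the left-out veh library. Together with Nfkbia, 3 of 9 members had such groups, where 21.2% of all genes did.

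**Figure D3:**
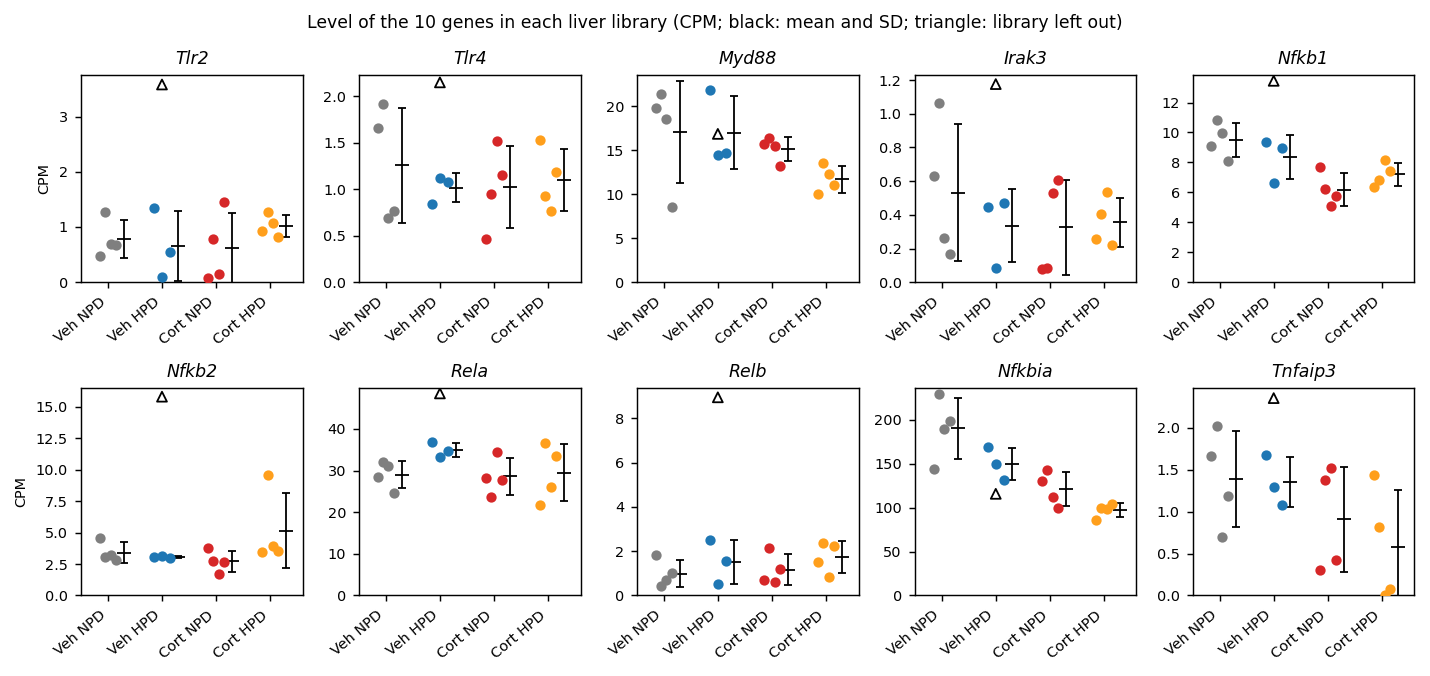
Level of each of the 10 genes in the liver libraries, in CPM on a linear axis that starts at 0, with 1 point per library, the mean and SD of each group beside the points, and a triangle for Veh HPD replicate 4, which is not in the mean. Nfkbia lay between 131 and 229 CPM in the 7 veh libraries used and between 86.2 and 143 CPM in the 8 cort libraries, and the triangle was the highest Veh HPD library for 8 of the 10 genes.

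The remaining members other than Rela were near the limit of the counts in liver. Rela was well measured, with 28.4, 32.2, 30.99 and 24.7 CPM in Veh NPD, 28.2, 23.7, 34.5 and 27.8 CPM in Cort NPD, 36.8, 33.4 and 34.8 CPM in Veh HPD and 21.7, 36.7, 26.1 and 33.4 CPM in Cort HPD. Its cort changes were -0.02 (SE 0.17) on the NPD and -0.25 (SE 0.18) on the HPD. Tlr4 lay between 0.462 and 1.91 CPM, Tlr2 between 0.0770 and 1.46 CPM and Relb between 0.425 and 2.51 CPM over the 15 libraries, and all of their groups overlapped in both cort comparisons. The SE of their cort changes was between 0.44 and 0.70 on the log2 scale. Changes of that size, and some larger ones, could therefore not be detected at this depth. With the left-out veh library in the fit, the HPD cort values of Tlr2, Tlr4 and Relb turned from 0.57, 0.12 and 0.17 to -0.44, -0.23 and -0.94, none of them called. Tnfaip3 had 0 to 30 counts in a liver library and read 1.67, 1.30 and 1.08 CPM in Veh HPD and 1.44, 0.814, 0 and 0.0742 CPM in Cort HPD, a log2 value of -1.22 with an SE of 0.75. The library at 0 allows a true count of up to 3, and this covers counting error only.

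The diet alone gave no called member in either tissue. By edgeR, 0 of 10 members were called in eWAT under veh and 0 under cort, with 0 and 1 at an unadjusted p under 0.05, and 0 of 9 in liver under veh and 0 under cort, again with 0 and 1, and DESeq2 and limma voom also called 0 in each. Of all genes, 0.0593% and 0.487% were called in eWAT and 0.169% and 5.88% in liver. Nfkbia in veh fat was 0.29 higher on the HPD on the log2 scale (SE 0.14, edgeR adjusted p = 0.629), while in cort fat its diet difference was -0.002 (SE 0.14). In liver the Nfkbia difference was -0.34 (SE 0.17) under veh and -0.32 (SE 0.16) under cort, with edgeR adjusted p of 0.54 and 0.236. The liver value of Nfkb2 under cort was 0.92 (SE 0.32, edgeR adjusted p = 0.0903), and without Cort HPD replicate 2 it was 0.41. Rela did not overlap between the diets in veh liver, with a difference of 0.27 (SE 0.18, edgeR adjusted p = 0.677), and 9.47% of all genes had such groups in that comparison. With the left-out library in the fit the veh liver values of Tlr2, Tlr4, Nfkb1, Nfkb2 and Tnfaip3 turned from negative to positive, none of them called. For the interaction of diet and cort, edgeR, DESeq2 and limma voom each called 0 members in both tissues, with 1 in each tissue at an unadjusted edgeR p under 0.05 (Relb in eWAT and Nfkb2 in liver), where 0.0132% of all genes were called in eWAT and 0.113% in liver.

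**Figure D4:**
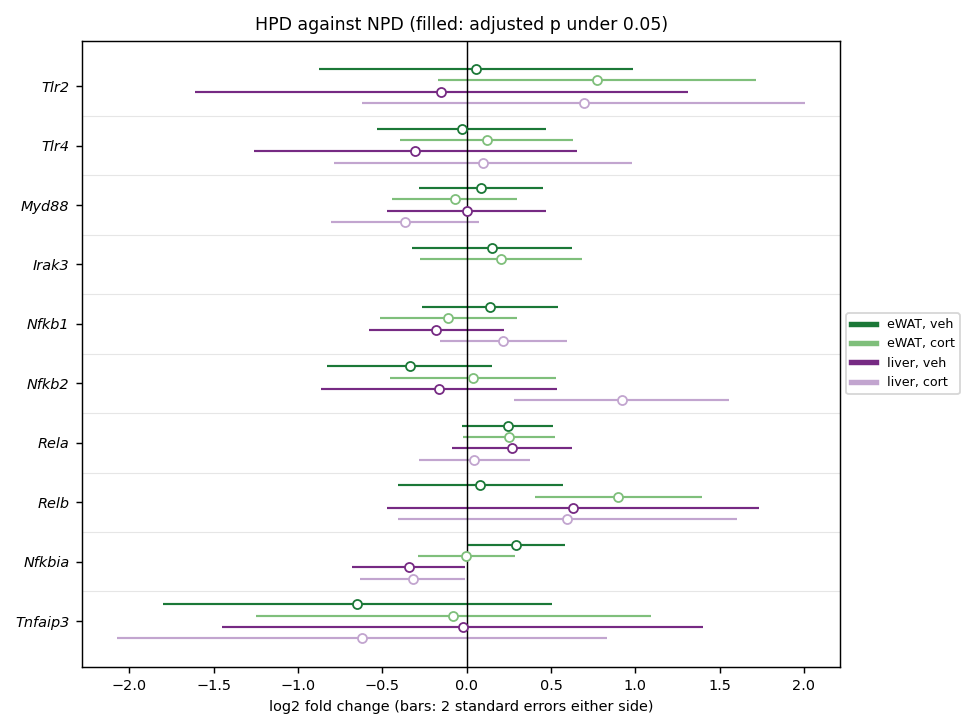
Log2 difference of HPD over NPD for each of the 10 genes (rows) under veh and cort in eWAT and liver (colours), with bars of 2 SE on either side. No point is filled, since no adjusted p was under 0.05, and the bars that lie farthest from 0 are Relb in eWAT under cort (0.90) and Nfkb2 in liver under cort (0.92).

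Both tissues were fitted together to ask whether cort moved the members differently in liver and fat. By edgeR 0 of 10 members were called on either diet, with 0 on the NPD and 1 on the HPD at an unadjusted p under 0.05, DESeq2 and limma voom called 0, and 3.85% and 3.12% of all genes were called. The cort change of Nfkbia in liver minus that in fat was -0.18 (SE 0.22) on the NPD and 0.06 (SE 0.23) on the HPD, with intervals of 2 SE from -0.62 to 0.26 and from -0.40 to 0.51. For Nfkb1 the difference was -0.38 (SE 0.28) and 0.18 (SE 0.29). The member with the smallest p was Rela on the HPD, at -0.50 (SE 0.22) with an edgeR adjusted p of 0.241.

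In Veh NPD mice the negative regulator Irak3, the receptor Tlr4 and the subunit Relb were lower in liver than in fat. On CPM scaled over both tissues Irak3 was 8.64 ± 2.52 in eWAT and 0.764 ± 0.578 in liver, Tlr4 8.64 ± 1.86 and 1.81 ± 0.883, and Relb 7.88 ± 0.597 and 1.43 ± 0.884 (SD, n = 4 in each tissue). The log2 differences of liver over eWAT were -3.52 (SE 0.44), -2.26 (SE 0.34) and -2.42 (SE 0.41), with edgeR adjusted p of 1.23e-08, 4.42e-07 and 4.44e-06. Myd88 and Rela were called higher in liver, at 0.63 (SE 0.21) and 0.40 (SE 0.15) with adjusted p of 0.00816 and 0.0222, but both turned to -0.36 and -0.62 when library totals were used without TMM factors. This scaling moved the median of all genes from -0.26 to -1.28. Relative to the median with TMM factors, Myd88 was at 0.89, Rela at 0.65, Tlr4 at -2.002, Relb at -2.17 and Irak3 at -3.27. A change of factors moves all genes by about the same amount, so such relative values cannot decide between the scalings. The share of members called was 5 of 10, below the 62.7% of all genes, and the cell types of the tissues differ throughout.

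The wider pathway was described with 83 further genes, of which 74 were tested in eWAT and 63 in liver: 20 receptors and co-receptors, 21 adaptors and kinases, 6 other Rel and IkB genes, 14 negative regulators and 22 genes that NF-kB is known to switch on. In fat of NPD mice 7 of them fell and 1 rose with cort, with a median log2 fold change of -0.12 against -0.02 over all genes tested. These are 8 of 74 genes, where 7.98% of all genes were called. The 17 target genes tested had the lowest median, -0.91, with 4 called, all lower. The chemokine Ccl5 went from 6.06 to 19.7 CPM in the veh libraries to 0.473 to 2.31 CPM in the cort libraries, a log2 fold change of -3.34 (SE 0.47, edgeR adjusted p = 3.01e-05). The costimulatory receptor Cd40 fell by 2.68 (SE 0.74) and the apoptosis inhibitor Birc3 by 0.96 (SE 0.26), with adjusted p of 0.0205 and 0.019. Among the receptors, Unc93b1, which carries endosomal Toll-like receptors to their compartment, read 102 to 108 CPM under veh and 61.1 to 68.9 CPM under cort, a change of -0.69 (SE 0.13, adjusted p = 0.000926). Ly86, the partner of the receptor Cd180, read 2.08 to 6.25 CPM and 0 to 0.872 CPM, a change of -3.44 (SE 0.78, adjusted p = 0.00507). The kinase Irak2 was the gene that rose, from a mean of 35.2 to 59.6 CPM, by 0.76 (SE 0.21, adjusted p = 0.0214).

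In fat of HPD mice 4 of the 74 genes fell with cort and 1 rose, where 6.09% of all genes were called, so that the share of the list was near that of all genes. The median of the list was -0.15. Ccl5 fell by 2.20 on the log2 scale (SE 0.45, edgeR adjusted p = 0.00271) and the adhesion molecule Vcam1 by 0.89 (SE 0.26, adjusted p = 0.0425). Tnip1, a partner of Tnfaip3, fell by 0.53 (SE 0.16, adjusted p = 0.0495), while Nfkbib, which encodes another IkB protein, rose by 0.63 (SE 0.19, adjusted p = 0.0464). Traf3ip3 had at most 2 counts in a Cort HPD library and read 0 to 3.24 CPM under veh. Without the library with epididymis transcripts, a setting added after the values were seen, 3 genes were called, all lower (Tnfrsf1b, Ccl5 and Vcam1), so that Tnip1, Nfkbib and Traf3ip3 were no longer among them. With all eWAT libraries limma voom called only Nfkbib, so that Ccl5 and Vcam1 were lost, while DESeq2 called all 5 and also Lbp and Tnfrsf1a. Ccl5 is made by T cells among others, and the sum of 6 T cell genes was 1.65 to 8.59 CPM in Veh NPD and 1.53 to 5.16 CPM in Cort NPD, and 2.26 to 6.42 CPM in Veh HPD and 0.105 to 1.86 CPM in Cort HPD. The stromal and Kupffer cell sums given above did not overlap in either fat comparison. On the HPD the red blood cell sum and the hepatocyte sum, which was mostly Cyp2e1, did not overlap either. The part of these shifts in the called genes was not tested.

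In liver of NPD mice 3 of the 63 genes fell with cort and 1 rose, where 12.6% of all genes were called. Lbp, the lipopolysaccharide-binding protein made by hepatocytes, rose from 55.8 to 69.3 CPM under veh to 134 to 162 CPM under cort, by 1.24 (SE 0.14, edgeR adjusted p = 2.16e-06). Ccl5 fell by 2.07 (SE 0.49, adjusted p = 0.00695), the endosomal receptor Tlr7 by 1.57 (SE 0.37, adjusted p = 0.00743) and the cytokine Il1a by 1.27 (SE 0.38, adjusted p = 0.0285). Levels were low for the latter genes, with Ccl5 at 0.779 to 2.97 CPM under veh and 0.182 to 0.606 CPM under cort. The Kupffer cell sum was lower in the same comparison, as given above, and that of 6 T cell genes was 3.35 to 5.06 CPM under veh and 0.265 to 2.60 CPM under cort. Their part in Tlr7, Ccl5 and Il1a was not tested.

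In liver of HPD mice 4 of the 63 genes rose and 3 fell, where 9.89% of all genes were called. Ikbkg, the regulatory subunit of the IkB kinase complex, rose from 23.5 to 38.7 CPM under veh to 58.3 to 79.9 CPM under cort, by 1.16 (SE 0.19, edgeR adjusted p = 0.000444). Lbp rose by 0.75 (SE 0.15), the receptor Tlr3 by 0.95 (SE 0.26) and Tax1bp1, another partner of Tnfaip3, by 0.49 (SE 0.14), with adjusted p of 0.00224, 0.0222 and 0.0338. The interleukin receptor Il1r1 went from 14.8 to 20.3 CPM to 3.83 to 7.12 CPM, a change of -1.67 (SE 0.28, adjusted p = 0.000662). The adaptors Ticam1 and Tirap fell by 0.90 (SE 0.22) and 0.63 (SE 0.19), with adjusted p of 0.0104 and 0.0418. With the left-out veh library in the fit 8 were called: Tlr3 was lost, at 0.72 with an adjusted p of 0.0858, and the receptor Tlr12 (1.13, adjusted p = 0.0487) and the mitochondrial superoxide dismutase Sod2 (0.55, adjusted p = 0.0297) were added. The hepatocyte, red blood cell, endothelial and Kupffer cell sums given above did not overlap in this comparison, nor did those of 6 T cell genes (2.29 to 4.04 CPM under veh and 0.660 to 1.56 CPM under cort) and 6 B cell genes (6.35 to 19.7 CPM and 1.09 to 4.56 CPM), and their part in these genes was not tested.

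Under cort some of these genes differed between the diets in liver, where the HPD level was higher for 6 of 63 and lower for 1, beside 5.88% of all genes called. Ikbkg was higher by 1.19 (SE 0.18, edgeR adjusted p = 0.000354) and Ccl5 by 2.62 (SE 0.48, adjusted p = 0.00175). The chemokine Cxcl10 read 0.770 to 3.95 CPM on the NPD and 10.1 to 26.5 CPM on the HPD, a difference of 3.04 (SE 0.64, adjusted p = 0.0174). Il1a was higher by 1.54 (SE 0.37) and Ly96, the co-receptor of Tlr4, by 0.76 (SE 0.22), with adjusted p of 0.0157 and 0.0475, and Il1r1 was lower, at -1.41 (SE 0.27, adjusted p = 0.00342). With the left-out veh library in the fit 3 were called (Ikbkg, Il1a and Ccl5). The sums of the Kupffer cell, hepatocyte, red blood cell and endothelial genes did not overlap between these groups either: the Kupffer cell sum was 60.7 to 80.8 CPM in Cort NPD and 92.1 to 164 CPM in Cort HPD (Clec4f and Cd5l higher), and the red blood cell sum was 1386 to 3627 CPM and 5441 to 7793 CPM (3 higher, 1 lower). The hepatocyte sum was 96151 to 118331 CPM and 138549 to 251394 CPM (2 higher), the endothelial sum was 48.4 to 91.1 CPM and 32.1 to 45.9 CPM (2 lower), and their part in these genes was not tested. In the other diet comparisons and both interactions edgeR called 0 of these genes, with 5 in veh fat, 5 in cort fat, 4 in veh liver, 2 for the fat interaction and 8 for the liver interaction at an unadjusted p under 0.05. Over all genes tested the shares at such a p were 8.03%, 9.81%, 9.40%, 5.16% and 12.1% in the same order. DESeq2 called 1 in veh fat, 1 in cort fat and 2 for the liver interaction, and limma voom called 0 in all 5 comparisons. In the joint fit 76 of these genes were tested. For the cort change in liver minus that in fat, edgeR called 1 on the NPD, Irak2 at -1.21, beside 3.85% of all genes. On the HPD it called Ikbkg (1.28), Tlr3 (1.55), Birc3 (1.48) and Ccl5 (2.42), beside 3.12%. Between the tissues in Veh NPD 24 were higher and 21 lower in liver, where 62.7% of all genes were called. The part of cell types in these genes was not tested.

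**Figure D5:**
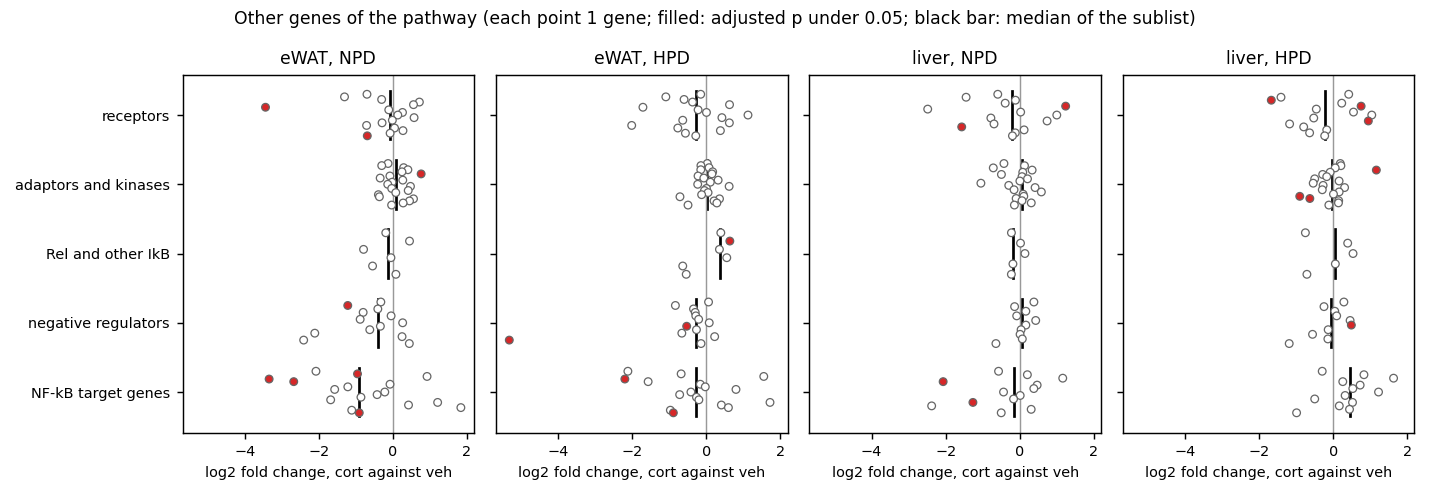
Log2 fold change of cort against veh for the other pathway genes, with 1 panel per tissue and diet, 1 row per gene group, 1 point per gene tested, red points for an adjusted p under 0.05 and a black bar for the median of the group. The target genes have the lowest median in eWAT on the NPD (-0.91), and the points called in liver on the HPD lie on both sides of 0.

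The genes whose log2 CPM followed each member most closely across the libraries of a tissue were listed for description, with Pearson's r over 16 eWAT or 15 liver libraries that share the groups and the scaling. For Nfkbia in eWAT these were Txnip (r = 0.91), 4931406P16Rik (0.889) and Sgk1 (0.869), and in liver Copz1 (0.904), Eef1a1 (0.904) and Rps13 (0.899). For Nfkb1 in liver they were Ncald (0.879), Rnf186 (0.877) and Ccs (0.87), and for Nfkb1 in eWAT Ppp6r2 (0.851), Pnck (0.834) and Ntrk3 (0.831). For Relb in eWAT they were Tmem206 (0.786), Mtss1l (0.771) and Fam102b (0.769). No other member was among the 3 closest genes of any member in either tissue.

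By the GENCODE annotation of GRCm38, Nfkbia lies at chr12:55489410-55492647, Relb at chr7:19606217-19629438, Tnfaip3 at chr10:19000910-19015657, Rela at chr19:5637483-5648130, Tlr2 at chr3:83836272-83841767 and Tlr4 at chr4:66827584-66930284. Nfkb1 at chr3:135584655-135691547 and Myd88 at chr9:119335934-119341411 share bases with an annotated gene on the same strand (Gm43430 and Slc22a14), and Myd88, Nfkb2 at chr19:46304320-46312385 and Irak3 at chr10:120141648-120202130 share bases with genes on the opposite strand (Acaa1a, Psd and Tmbim4, among others). How the counts used strand is not given in the sources used here, so the counts of these 4 genes could hold reads of their neighbours.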

How the data were processed

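Whole-number counts of reads on each Ensembl gene, without normalization, were deposited by the authors with a column for every library, and all columns were used. The labels give GRCm38 (mm10) as the build and the submitters' processing notes name R 4.0.3 and limma, while the aligner and the counting program are not given in the sources used here. Symbols and positions came from the GENCODE annotation of GRCm38, and 419 IDs had none. The counts were fitted with edgeR 4.0.16 (R 4.3.3), using filterByExpr (minimum count 10, minimum total count 15), TMM scaling (factors 0.754 to 1.11), robust dispersions and the quasi-likelihood test, with 1 mean per group and 1 fit per tissue (16 eWAT and 15 liver libraries), and a joint fit of 31 libraries for tissue comparisons. A gene was called at a Benjamini-Hochberg adjusted p under 0.05 over all genes tested. The SE is the log2 fold change divided by the root of the F statistic. The steps were tested on simulated data with planted log2 changes of 2, so this does not show how well smaller changes are found. For cort in eWAT on the NPD, 10.2% of the DESeq2 calls and 6.28% of the edgeR calls in it were false. Log2 CPM used a prior count of 2.

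The 10 members and all gene lists were chosen with earlier results of these data known, and all 10 members are named in every comparison. Of the wider list, up to 5 called genes per direction and comparison with the smallest p are named. For liver against eWAT in Veh NPD only the counts are given. For each member the 3 genes most correlated with it were sought. Alternatives were RLE factors, library totals without TMM, no low count filter, DESeq2 1.42.0, limma voom 3.58.1, the replicate number as a block, only the 2 groups compared, all liver libraries, and each library left out in turn. A gene to which DESeq2 gave no adjusted p was counted as not called. No label says that replicates are separate animals, so p-values measure the spread between these libraries, which may be technical. Over 48 pairs of replicates 0 held identical counts, and a chi-squared comparison averaged at least 14.1 per gene, so no library was counted as a repeat.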

Additional observations from a re-analysis of the deposited data

Results flagged for a closer look

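Of 70 groups of 4 libraries, 4 had 1 library far from the others by Dixon's test, where chance gives about 1 in 20. Relb in eWAT Veh NPD replicate 3 was at 12.5 CPM against 10.7 to 10.8 CPM in the others. Tnfaip3 in eWAT Veh HPD replicate 2 was at 4.49 CPM against 2.01 to 2.28 CPM, and in eWAT Cort NPD replicate 4 at 0.890 CPM, from 10 counts, against 2.997 to 3.42 CPM. Nfkb2 in liver Cort HPD replicate 2 was at 9.59 CPM, from 165 counts, against 3.48 to 3.90 CPM, and without that library its cort change on the HPD was 0.26 instead of 0.76 on the log2 scale.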

How the results depend on the processing

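Nfkbia was called in eWAT on the HPD and in liver on the NPD under every alternative tried, with adjusted p of at most 0.0149 and 0.0343. In eWAT on the NPD edgeR called 0 members, and 1 (Nfkbia, adjusted p 0.0271 to 0.049) was called with library totals, no filter, DESeq2 or only the 2 groups compared. In liver on the NPD 2 were called, and 1 with library totals, no filter, all libraries or the replicate block, where Nfkb1 had adjusted p of 0.0563, 0.079, 0.0687 and 0.051. In liver on the HPD 1 was called, and 0 with all libraries. Leaving out single libraries gave 0 to 1 (eWAT NPD), 1 to 2 (eWAT HPD), 1 to 2 (liver NPD), 0 to 1 (liver HPD) and 4 to 6 called members between the tissues, and 0 in all other comparisons. In eWAT on the NPD, Nfkbia was called without eWAT Veh HPD replicate 3 or 4 (adjusted p 0.0446 and 0.0433). Between the tissues, library totals gave 9 called members in place of 5, all lower in liver, and turned Myd88 to -0.36, Rela to -0.62 and Nfkbia to -0.81. The replicate block gave 0, 1, 1 and 1 called members in the cort comparisons of eWAT NPD, eWAT HPD, liver NPD and liver HPD and 5 between the tissues. Deviations from the group mean were compared between libraries with the same number. Their correlation passed 0.1 in 1 of 24 pairs within eWAT, 3 of 21 within liver and 1 of 15 between the tissues. This cannot show whether libraries with the same number came from the same mouse, and the labels do not say.

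For the wider list, with settings added after the values were seen, DESeq2 called 9 genes in liver on the NPD in place of 4, and limma voom 1 in eWAT on the HPD in place of 5. Over all genes, DESeq2 called 126 for the diet in veh fat where edgeR called 9, and 998 were called in liver on the NPD with all libraries in place of 1565. Library totals moved the median of all genes to -0.11 for cort in eWAT on the NPD, to -0.24 for cort in liver on the HPD and to -0.18 for the diet in cort liver. Among the 116 member comparisons not called, 43 changed sign in at least 1 fit, so their directions are not settled. Counts limit Tlr2, Tlr4, Relb, Irak3 and Tnfaip3 in liver. The cause of the lost calls was not tested.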

Other observations

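Liver Veh HPD replicate 4, which entered no comparison of the main values, read 3.58 CPM for Tlr2, 2.15 CPM for Tlr4, 16.9 CPM for Myd88, 1.18 CPM for Irak3, 13.4 CPM for Nfkb1, 15.8 CPM for Nfkb2, 48.5 CPM for Rela, 8.95 CPM for Relb, 116 CPM for Nfkbia and 2.35 CPM for Tnfaip3. With it in the fit the veh diet values in liver were 1.75 for Relb, 0.86 for Nfkb2 and 0.88 for Tlr2 on the log2 scale (edgeR adjusted p = 0.257, 0.473 and 0.639). The summed level of its macrophage genes was 510 CPM and of its Kupffer cell genes 324 CPM, above every other liver library, and that of its hepatocyte genes was 37399 CPM, below every other liver library.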
